A study of Mus musculus with 16 samples.

Results

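The BCL2 family genes described here are 10 genes that set whether a cell keeps or loses the integrity of its mitochondria, measured in conventional type 1 dendritic cells (cDC1s) sorted from mouse spleen. They were chosen by symbol from the table of raw counts: Bcl2, Bcl2l1 and Mcl1, which protect cells, Bcl2l11, Bid, Bbc3 and Pmaip1, which promote death, Bax and Bak1, which carry it out, and Bcl2l14. All 10 were found among the 24421 genes of the table, and all 10 were among the 11978 genes that passed the filter on low counts. RNA was sequenced from 16 libraries in 4 groups of 4: immature and mature cDC1s of Xbp1fl mice, and immature and mature cDC1s of Xbp1flIre1fl mice, all C57BL6 and all at steady state. The genotype names stand for loxP-flanked alleles of Xbp1, or of Xbp1 and Ire1. The labels name no Cre and give the condition WT for all 16 libraries. IRE1 senses misfolded protein in the endoplasmic reticulum, and XBP1 is the factor it switches on. Age, sort gates and the number of mice behind a library are not stated in the sources used here.

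Mitochondrial apoptosis is decided by binding between members of this family. BCL2, BCL-xL (from Bcl2l1) and MCL1 hold the pore-forming proteins BAX and BAK in check, and the BH3-only proteins BIM (from Bcl2l11), BID, PUMA (from Bbc3) and NOXA (from Pmaip1) occupy the protective proteins or activate BAX and BAK directly. Each BH3-only protein has its own partners, and NOXA is known for binding MCL1. Dendritic cells are short-lived, and BIM and the balance of BCL2 and BCL-xL are known from other work as determinants of their lifespan. Bcl2l14 encodes BCL-G, a relative whose role in cell death is less settled.

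Library totals lay between 13948232 and 17000763 counts, and every member had at least 48 counts in every library. All 9 cDC1 markers and all 7 maturation markers looked for were present. The summed level of the cDC1 markers was 8174 to 9243 CPM in immature and 5416 to 7798 CPM in mature libraries, and that of the maturation markers 2084 to 3322 and 11548 to 25832 CPM. CPM stands here for counts per 1000000 counts after scaling of the libraries by the trimmed mean of M values (TMM). The cDC1 markers did not move together. In mature libraries Xcr1, Clec9a, Irf8, Tlr3 and Wdfy4 were called lower, Cd8a and Batf3 higher, and Itgae and Cadm1 neither. Markers of other cells were present too: summed over 10 B cell genes, 104 to 163 CPM in immature and 310 to 1068 CPM in mature libraries, and over 11 macrophage genes, 162 to 592 and 567 to 1128 CPM. No marker of these lists found in the counts table was at 0 in all libraries of a stage. Of the 10 B cell markers 10 were called higher in mature libraries, of the 11 macrophage markers 9, and of 9 T cell markers 6. Among all genes tested 33.4% were called higher and 34.2% lower. Markers of cDC2s, the other conventional dendritic cells, summed to 213 to 251 CPM in immature and 310 to 448 CPM in mature libraries, with 4 of 6 tested called higher (Sirpa, Esam, Irf4 and Clec4a4). NK cell markers summed to 123 to 175 and 65.9 to 114 CPM, with 2 of 7 called lower (Klrk1 and Klrd1). Plasma cell markers had 2 of 4 called higher and 1 lower, those of plasmacytoid dendritic cells 2 of 6 higher and 1 lower, and those of neutrophils 1 of 6 lower. The part of such cells in the values below was not tested. In bulk libraries, fewer cells of a type and less RNA per cell cannot be told apart. In the mature Xbp1flIre1fl group, replicates 2 and 4 had the lowest Ccr7, the chemokine receptor of mature dendritic cells, at 6574 and 4988 CPM against 11921 and 13425 CPM in replicates 1 and 3.

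The largest rises were in Bcl2l14, Bcl2l11 and Bcl2l1, so their promoter sequences are shown first. Each line below gives the 250 bases upstream of the outermost RefSeq start of the gene (GRCm38.p6), 5′ to 3′ on the gene's strand, at chr6:134396079-134396328 (plus strand), chr2:128125788-128126037 (plus strand) and chr2:152831729-152831978 (minus strand). Capitals mark matches, on either strand, to GGG and CC with any 5 bases between them, a loose NF-kB motif, or to TGTTTAC, a FOXO motif.
Bcl2l14: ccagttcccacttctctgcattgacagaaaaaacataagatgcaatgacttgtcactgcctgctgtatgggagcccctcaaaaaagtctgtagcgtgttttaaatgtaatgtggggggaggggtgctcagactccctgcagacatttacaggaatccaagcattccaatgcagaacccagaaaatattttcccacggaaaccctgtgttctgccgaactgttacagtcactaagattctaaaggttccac
Bcl2l11: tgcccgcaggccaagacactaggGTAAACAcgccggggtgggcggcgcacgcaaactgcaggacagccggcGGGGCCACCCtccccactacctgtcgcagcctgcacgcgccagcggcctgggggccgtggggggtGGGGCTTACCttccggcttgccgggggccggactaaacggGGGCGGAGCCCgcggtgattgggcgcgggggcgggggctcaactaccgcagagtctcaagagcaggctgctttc
Bcl2l1: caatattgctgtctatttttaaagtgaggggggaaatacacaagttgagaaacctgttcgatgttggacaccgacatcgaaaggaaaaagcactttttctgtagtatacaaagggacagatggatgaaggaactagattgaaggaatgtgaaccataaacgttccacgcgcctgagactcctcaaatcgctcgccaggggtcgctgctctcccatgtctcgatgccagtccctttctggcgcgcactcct
The Bcl2l11 window held 4 matches to the NF-kB letters, of which 2 overlap each other by all but 1 base, and 1 to the FOXO letters (GTAAACA). The windows shown for Bcl2l14 and Bcl2l1 held none of either. They also differ in composition, with 72.0% G or C for Bcl2l11, 45.6% for Bcl2l14 and 47.6% for Bcl2l1. The RefSeq windows used here were 15 for 9 of the members, some with several starts, with none for Pmaip1. Of the 15, 11 held the NF-kB letters, among them another Bcl2l1 window with 2 matches. By gene these were 8 of the 9, and windows of a gene can overlap and share matches, as in Bbc3. The NF-kB letters stand in 45.8% of all 32851 windows of this length, and the FOXO letters, found in 2 of the 15, in 3.17%. The fixed NF-kB letters are all G or C, and a Bbc3 window had 81.6% G or C. The G and C content of all windows was not compared. No member window held TTCNNNGAA (a STAT motif, in 7.02% of all windows), GAAA repeated after any 2 bases (a loose interferon response motif, 2.98%) or TGANTCA (AP-1, 6.75%). A match is a description of letters, not of binding.

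The comparison of mature with immature cells asks how these genes change as cDC1s mature without infection. As the mean over both genotypes, 6 of the 10 members rose (Bcl2l14, Bcl2l11, Bcl2l1, Bbc3, Pmaip1 and Mcl1), 2 fell (Bcl2 and Bid) and 2 did not pass the test (Bax and Bak1). Calls were made with edgeR's quasi-likelihood test at 0.05, after Benjamini-Hochberg adjustment over the 11978 genes. Calls between the stages were common: 67.6% of all genes tested were called, 33.4% higher and 34.2% lower, so a share of 8 in 10 is near the background. The median log2 fold change of the members was 0.67, beside -0.01 over all genes tested. Changes over 4-fold upward, called in 5.38% of all genes, were seen in 3 members, and called changes over 2-fold upward, at 12.3% of all genes, in 4. Groups without overlap were found in 33% of all genes. In 5 members every mature library lay above every immature library, and in 1, Bid, every mature library lay below, where 18% and 15% of all genes did so. The members were chosen with results of these data known, and no test of the family as a group was made.

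**Figure D1:**
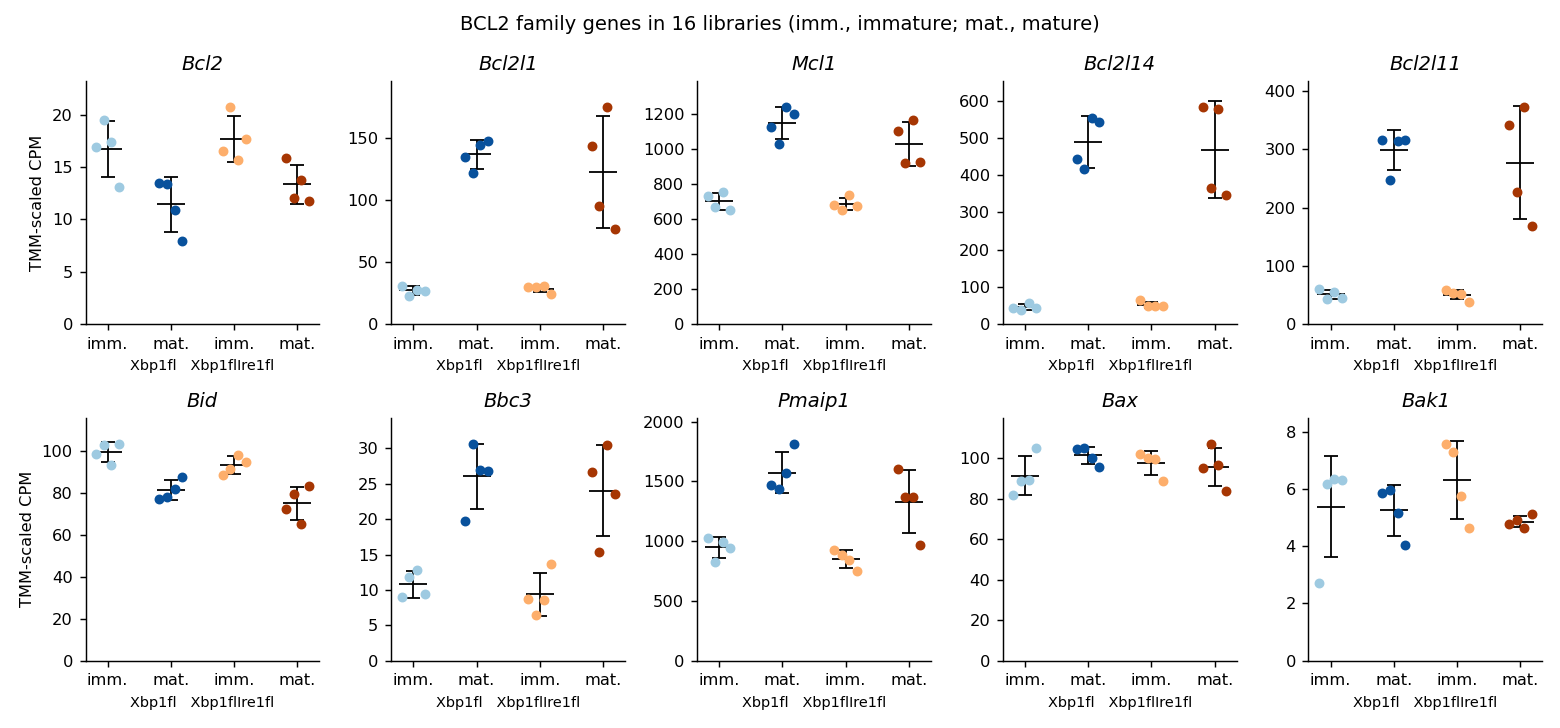
TMM-scaled CPM of each of the 10 genes (vertical axis, from 0) in the 4 libraries of each group (points), with the mean and SD (bars). Bcl2l1, Mcl1, Bcl2l14, Bcl2l11 and Bbc3, which were higher in mature libraries, and Bid, which was lower, show no overlap between the stages, and in the mature Xbp1flIre1fl group the points of Bcl2l1, Bcl2l11 and Bcl2l14 split into a low and a high pair.

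Among the protective genes, Bcl2l1 changed most. Bcl2l1 lies on chromosome 2 (152780668 to 152831728, minus strand; GENCODE M21 on mm10) and encodes BCL-xL, with a short, death-promoting isoform that counts per gene do not separate. In immature cells it was at 31.0, 22.8, 27.8 and 26.6 CPM in Xbp1fl replicates 1 to 4, and at 29.5, 29.9, 30.5 and 24.4 CPM in those of Xbp1flIre1fl. In mature cells it was at 134, 122, 144 and 147 CPM in Xbp1fl, and at 143, 95.2, 175 and 76.3 CPM in Xbp1flIre1fl. All 8 mature libraries lay above all 8 immature ones, and the spread was widest in mature Xbp1flIre1fl cells. From means of 27.8 ± 3.01 to 130 ± 31.4 CPM (SD, n = 8 each) Bcl2l1 rose 4.65-fold (log2 fold change 2.22 ± 0.14, SE; edgeR adjusted p = 2.4e-09).

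Mcl1 (chromosome 3, 95658788 to 95663176, plus strand) encodes a protective protein with a short half-life, and it started from a much higher level. Its immature libraries lay between 652 and 752 CPM (median 676) and its mature libraries between 922 and 1239 CPM (median 1115), with no overlap. Mcl1 rose 1.57-fold (log2 fold change 0.65 ± 0.06; edgeR adjusted p = 4.8e-08).

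Bcl2 (chromosome 1, 106538178 to 106714274, minus strand), the founding member, went the other way. Its immature libraries were at 17.0, 19.5, 17.4 and 13.1 CPM in Xbp1fl and at 16.5, 20.7, 15.7 and 17.7 CPM in Xbp1flIre1fl, in the order of replicates 1 to 4. The mature ones were at 13.4, 13.4, 10.9 and 7.91 CPM in Xbp1fl and at 15.8, 12.1, 13.8 and 11.7 CPM in Xbp1flIre1fl. The stages overlapped, with 4 of 8 mature libraries below every immature library. Bcl2 fell 1.39-fold, from 17.2 ± 2.33 to 12.4 ± 2.36 CPM (SD over 8 libraries a stage; log2 fold change -0.48 ± 0.11, SE; edgeR adjusted p = 0.0013). In each of the 8 pairs of libraries that share genotype and replicate number, the mature library was lower, at 0.581 to 0.959 of the immature one. Lymphocytes express Bcl2 too, and summed T cell markers, like those of B cells, were higher in mature (64.8 to 119 CPM) than in immature libraries (35.8 to 58.9 CPM). Their part in the level of Bcl2 was not tested. Within Xbp1flIre1fl alone the fall of Bcl2 was close to the threshold (log2 fold change -0.40 ± 0.16, adjusted p = 0.043). It lost its call there when any 1 of 7 libraries was left out (mature replicate 2, 3 or 4, immature replicate 1, 2 or 4, or immature Xbp1fl replicate 1; adjusted p of 0.051 to 0.13), and without mature replicates 2 and 4 together it was -0.26 (adjusted p = 0.26). With a replicate block within each genotype the adjusted p was 0.013.

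The ratio of Bcl2l1 to Bcl2 does not depend on the scaling of libraries. Per kilobase of exon it was 3.29 ± 0.604 in immature and 21.7 ± 7.70 in mature libraries (SD, n = 8 each), and ranged from 2.33 to 4.07 and from 13.0003 to 37.2, without overlap.

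Among the BH3-only genes, Bcl2l11 rose most, followed by Bbc3 and then Pmaip1, while Bid fell. Bcl2l11 (chromosome 2, 128126038 to 128162547, plus strand) encodes BIM, which binds all the protective proteins. Its immature levels were 60.6, 43.1, 54.6 and 45.4 CPM in Xbp1fl replicates 1 to 4 and 57.8, 53.1, 52.3 and 38.6 CPM in Xbp1flIre1fl. The mature levels were 316, 248, 314 and 316 CPM in Xbp1fl and 342, 227, 373 and 168 CPM in Xbp1flIre1fl. The stages did not overlap, and the lowest mature libraries were again replicates 4 and 2 of Xbp1flIre1fl. Bcl2l11 rose 5.68-fold, from 50.7 ± 7.62 to 288 ± 67.8 CPM (SD over 8 libraries a stage; log2 fold change 2.51 ± 0.16, SE; edgeR adjusted p = 1.7e-09).

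Bbc3 (chromosome 7, 16308393 to 16318205, plus strand) encodes PUMA, best known as a target of p53. It was at 6.45 to 13.7 CPM in immature libraries (median 9.22) and at 15.3 to 30.7 CPM in mature ones (median 26.7), without overlap. Bbc3 rose 2.49-fold (log2 fold change 1.31 ± 0.16; edgeR adjusted p = 1.9e-06). In single pairs of libraries the ratio went from 1.72 to 3.54.

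Pmaip1 encodes NOXA. It had the highest counts of the family in both stages, 748 to 1027 CPM in immature libraries (median 906) and 967 to 1814 CPM in mature ones (median 1452). Of the mature libraries 7 of 8 lay above every immature library, and the exception was Xbp1flIre1fl replicate 4 at 967 CPM, which still lay above all immature libraries of its own genotype (748 to 925 CPM). Pmaip1 rose 1.61-fold (log2 fold change 0.69 ± 0.09; edgeR adjusted p = 2.0e-06). The ratio of Pmaip1 to Mcl1 per kilobase was 1.62 ± 0.151 in immature and 1.66 ± 0.203 in mature libraries (SD, n = 8 each), with overlapping ranges. By contrast, the ratio of Bcl2l11 to Mcl1 was 0.0311 ± 0.0041 and 0.112 ± 0.0186, with no overlap. The ratio of Bcl2l11 to Bcl2l1 moved less, from 1.04 ± 0.083 to 1.27 ± 0.075, also with no overlap.

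Bid (chromosome 6, 120891930 to 120916853, minus strand) encodes the BH3-only protein that is cut by caspase 8 and links death receptors to mitochondria. It fell 1.23-fold, from 96.3 ± 5.27 to 78.0 ± 6.93 CPM (SD over 8 libraries a stage; log2 fold change -0.30 ± 0.05, SE; edgeR adjusted p = 5.6e-05). Immature libraries lay between 88.3 and 103 CPM and mature ones between 65.1 and 87.7 CPM, so that the stages did not overlap though the change was small. Exons of Bid overlap those of Bcl2l13 on the opposite strand, and since the strandedness of the libraries is not given in the sources used here, reads of the shared stretch cannot be assigned. Bcl2l13 was at 56.9 CPM in immature and 64.5 CPM in mature libraries.

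The effector genes did not pass the test as the mean over both genotypes. Bax (chromosome 7, 45461697 to 45466898, minus strand) was at 82.0 to 105 CPM in immature and 84.0 to 107 CPM in mature libraries, with a log2 fold change of 0.06 ± 0.06 (edgeR adjusted p = 0.36). Its sign rested on the scaling: the log2 fold change was -0.06 with upper quartile normalization (adjusted p = 0.37) and -0.16 with library sizes only (adjusted p = 0.014), settings that moved the median over all genes to -0.13 and -0.23. Within Xbp1fl alone Bax was called higher when immature replicate 4 was left out. Bak1 (chromosome 17, 27019810 to 27029009, minus strand) was far lower, at 2.72 to 7.57 CPM in immature and 4.03 to 5.96 CPM in mature libraries. Its log2 fold change was -0.21 ± 0.16 (edgeR adjusted p = 0.27), but -0.32 (adjusted p = 0.031) without immature Xbp1fl replicate 1, which held 2.72 CPM where the other three of its group held 6.17 to 6.34 CPM, and -0.43 (adjusted p = 0.023) with library sizes only. Counts of 48 to 130 per library limit the precision for Bak1. Exons of Bax overlap those of Gm45808 on the same strand, and exons of Bcl2 and Bcl2l14 overlap antisense genes (D630008O14Rik and 4933406J09Rik); the counts table held no row under these 3 names, and how shared reads were counted is not given in the sources used here.

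Bcl2l14 changed most of all members. It lies on chromosome 6 (134396318 to 134438736, plus strand). Immature libraries held 43.1, 38.4, 56.5 and 44.0 CPM in Xbp1fl replicates 1 to 4, and 63.8, 48.0, 48.7 and 47.2 CPM in Xbp1flIre1fl. Mature libraries held 444, 418, 555 and 544 CPM in Xbp1fl, and 583, 367, 579 and 347 CPM in Xbp1flIre1fl. The lowest mature library, at 347 CPM, lay far above the highest immature one, at 63.8 CPM. Bcl2l14 rose 9.87-fold, from 48.7 ± 8.04 to 480 ± 96.9 CPM (SD over 8 libraries a stage; log2 fold change 3.30 ± 0.14, SE; edgeR adjusted p = 2.1e-11). Among all 11978 genes tested its log2 fold change ranked 286 from the top, that of Bcl2l11 439 and that of Bcl2l1 548.

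**Figure D2:**
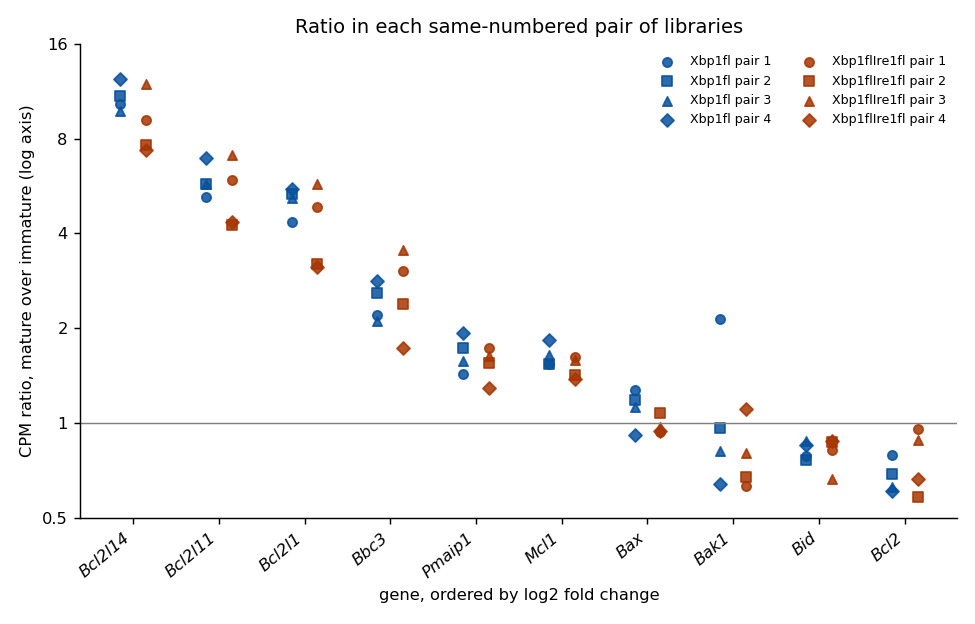
Ratio of CPM in the mature to the immature library (vertical axis, log scale) for each of the 8 pairs that share genotype and replicate number, for each gene in order of its log2 fold change. The ratio was above 1 in all 8 pairs for Bcl2l14, Bcl2l11, Bcl2l1, Bbc3, Pmaip1 and Mcl1, and below 1 in all 8 for Bid and Bcl2, while Bax and Bak1 lie on both sides.

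Levels of different genes were set side by side per kilobase of exon, using the union of each gene's exons in GENCODE M21. In immature cells the order was Pmaip1 (329 CPM per kilobase), Mcl1 (203), Bax (59.9), Bid (27.1), Bcl2l14 (11.9), Bcl2l11 (6.31), Bcl2l1 (6.07), Bbc3 (4.75), Bak1 (2.43) and Bcl2 (1.88). Neighbours from Pmaip1 down to Bcl2l11 had ranges apart over the 8 libraries, and the ranges of each pair of neighbours from Bcl2l11 to Bcl2 overlapped. In mature cells Bcl2l14 (117 CPM per kilobase) moved up to the third place, behind Pmaip1 (531) and Mcl1 (318). Bax (62.5), Bcl2l11 (35.9), Bcl2l1 (28.3), Bid (22.0), Bbc3 (11.8), Bak1 (2.098) and Bcl2 (1.35) came after it. Here the ranges of Pmaip1 and Mcl1 overlapped, as did those of Bcl2l11 with Bcl2l1, Bcl2l1 with Bid, and Bak1 with Bcl2. With the longest transcript as the length, the order was the same in mature cells, and in immature cells Bcl2l1 and Bcl2l11 changed places.

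**Figure D3:**
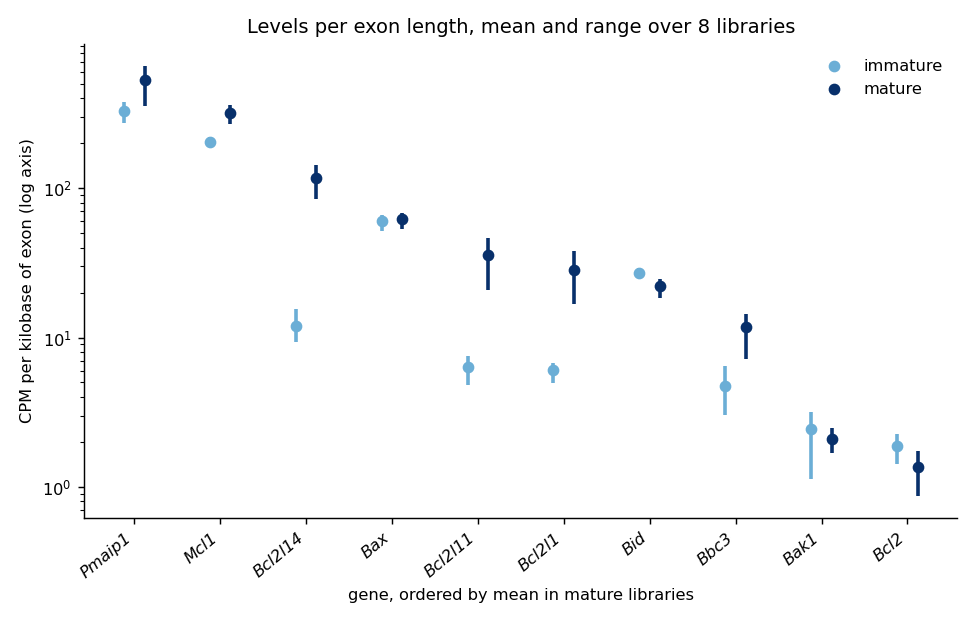
CPM per kilobase of exon (vertical axis, log scale) of each gene, as the mean (points) and range (lines) over the 8 immature and the 8 mature libraries. Pmaip1 and Mcl1 lead in both stages, Bcl2l14 goes from 11.9 to 117, and Bak1 and Bcl2 are lowest.

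The summed level of the 10 genes was 652 ± 40.6 CPM per kilobase in immature and 1130 ± 151 in mature libraries (SD, n = 8 each). As shares of this sum, a measure that library scaling does not touch, Pmaip1 made up 50.4% ± 2.29 in immature and 46.8% ± 2.88 in mature libraries (SD, n = 8 each). Mcl1 made up 31.1% ± 1.67 and 28.3% ± 1.97. The share of Bcl2l14 was 1.82% ± 0.278 in immature and 10.3% ± 1.15 in mature libraries, and those of Bcl2l11 0.965% ± 0.103 and 3.14% ± 0.473. The effectors Bax and Bak1 together went from 9.59% ± 1.04 to 5.80% ± 0.782, with ranges of 7.58% to 10.4% and 4.73% to 6.93% that did not overlap. The sum they are a share of was higher in mature cells, while Bax itself was at 59.9 and 62.5 CPM per kilobase and neither gene passed the test. The 3 protective genes together were at 32.3% ± 1.69 and 30.9% ± 1.98, and the 4 BH3-only genes together at 56.2% ± 2.04 and 53.0% ± 2.56, each with overlapping ranges. The shares depended on the length used. With the longest transcript, Bcl2l14 made up 3.05% ± 0.457 and 16.2% ± 1.65, Pmaip1 46.3% ± 2.28 and 40.4% ± 2.75, Mcl1 28.5% ± 1.51 and 24.4% ± 1.66, and Bcl2l11 1.41% ± 0.152 and 4.32% ± 0.613. By that length the effectors were at 12.5% ± 1.28 and 7.10% ± 0.989, the protective genes at 30.4% ± 1.53 and 28.4% ± 1.64, and the BH3-only genes at 54.1% ± 2.03 and 48.3% ± 2.40. The ranges of the effectors and of the BH3-only genes then did not overlap between stages, and those of the protective genes did. These shares are of mRNA per exon length and say nothing of protein. They cover only the 10 genes chosen. The Bcl2a1 genes, treated below, also encode a protective protein and are left out, as are other BH3-only genes such as Bad. Bcl2a1a, Bcl2a1b and Bcl2a1d went from 44.3, 91.7 and 57.4 CPM in immature to 77.0, 276 and 106 CPM in mature libraries.

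Within each genotype the same test was made with 4 libraries a stage. In Xbp1fl 6 members were called higher and 2 lower, where 56.8% of all genes were called, 28.4% higher and 28.3% lower. In Xbp1flIre1fl also 6 were higher and 2 lower, where 53.5% of all genes were called, 27.4% higher and 26.1% lower. The log2 fold change of Bcl2l14 was 3.43 ± 0.19 (SE) in Xbp1fl and 3.18 ± 0.19 in Xbp1flIre1fl. For Bcl2l11 it was 2.55 ± 0.22 and 2.46 ± 0.22, and for Bcl2l1 2.34 ± 0.20 and 2.098 ± 0.20. Bbc3 changed by 1.27 ± 0.23 and 1.35 ± 0.23, Pmaip1 by 0.73 ± 0.12 and 0.64 ± 0.12, and Mcl1 by 0.71 ± 0.09 and 0.59 ± 0.09. For Bid the values were -0.29 and -0.31, each ± 0.07. Bax and Bak1 were called in neither genotype. Bax was at 0.15 ± 0.08 in Xbp1fl and -0.03 ± 0.08 in Xbp1flIre1fl, and Bak1 at -0.04 ± 0.23 and -0.38 ± 0.23. In Xbp1fl the value of Bax was 0.10 to 0.22 over single libraries left out. It was called higher there without immature replicate 4. The difference between the genotypes in these changes was tested as an interaction, and no member was called (log2 differences of -0.34 to 0.15, SE of 0.10 to 0.32, smallest unadjusted p = 0.14). Over all genes edgeR called 0 interactions (0%), as did DESeq2, with 329 genes (2.75%) at an unadjusted p under 0.05.

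**Figure D4:**
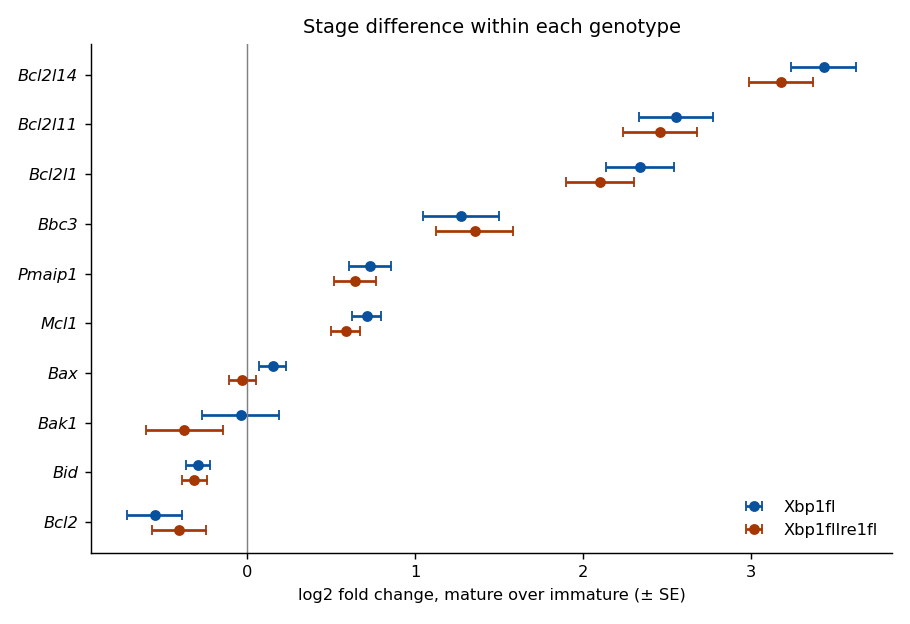
Log2 fold change of mature over immature cells (horizontal axis, ± SE) for each gene within Xbp1fl and within Xbp1flIre1fl. The order of the genes is similar in both genotypes, from Bcl2l14 (3.43 and 3.18) to Bcl2 (-0.55 and -0.40).

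The genotypes were also compared within each stage. In immature cells no member was called between Xbp1flIre1fl and Xbp1fl, where 0.134% of all genes were, and the members' log2 differences lay between -0.20 (Bbc3) and 0.23 (Bak1). In mature cells no member was called either, where 0.142% of all genes were, with log2 differences from -0.24 ± 0.12 (Pmaip1) to 0.22 ± 0.17 (Bcl2). The smallest unadjusted p among the members was 0.22 in immature and 0.065 in mature cells. Within the mature Xbp1flIre1fl group, replicates 2 and 4 were the 2 lowest libraries for 7 of the 10 members, as they were for Ccr7. The share of all genes tested with this order was not counted, so the 7 cannot be read as a trait of the family. The mean of replicates 2 and 4 was 85.8 CPM for Bcl2l1, against 159 CPM in replicates 1 and 3, 197 against 357 CPM for Bcl2l11, and 357 against 581 CPM for Bcl2l14. Bcl2, which was lower in mature than in immature cells, was among the 7 too, at 11.9 against 14.8 CPM. Bid, Bax and Bak1 had other orders. Summed B cell markers were 322 and 709 CPM in replicates 2 and 4 and 754 and 1068 CPM in replicates 1 and 3. Without replicates 2 and 4, an alternative chosen after the data had been seen, the stage changes as the mean of both genotypes were 3.45 for Bcl2l14, 2.68 for Bcl2l11, 2.40 for Bcl2l1 and -0.41 for Bcl2 on the log2 scale, all still called, and 6 members were higher and 2 lower.

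Profiles like those of the members were looked for among 8911 genes of at least 5 CPM, by the root mean square difference of log2 CPM over the 16 libraries after each gene was centred on its mean. The stage change stays in such a profile, so genes of similar fold change come out near each other, and shared regulation was not tested. The nearest gene to Bcl2l14 was Relb, an NF-kB subunit of the non-canonical branch (difference 0.11), followed by Ccser2 (0.15) and the death receptor gene Fas (0.15). Log2 fold changes of these 3 genes were 3.31, 3.19 and 3.56, beside 3.30 for Bcl2l14. Nearest to Bcl2l11 were Cxcl16, a chemokine gene (0.09), Sqstm1, which encodes an autophagy adaptor (0.13), and Etv3 (0.13). Nearest to Bcl2l1 were Gpr137b (0.11), Plxnc1 (0.12) and Ppp4r2 (0.14). For Mcl1 the nearest were Mcur1 (0.05), Tyk2, a JAK kinase (0.05), and Rbpj (0.06), and for Bcl2 Stap1 (0.15), Mndal (0.19) and Rnaseh2c (0.19). The root mean square of each profile around its own mean was 1.66 for Bcl2l14, 1.27 for Bcl2l11, 1.13 for Bcl2l1 and 0.34 for both Mcl1 and Bcl2.

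Other genes of the family were taken from a list of 16, of which 11 passed the filter on low counts, 7 rose and 4 fell (median log2 fold change 0.45, beside -0.01 over all genes). Among all genes tested 33.4% were called higher and 34.2% lower. The Bcl2a1 genes encode A1, a protective protein of blood cells that NF-kB is known to induce. Bcl2a1b rose 3.01-fold, from 91.7 ± 14.6 to 276 ± 44.7 CPM (SD over 8 libraries a stage; edgeR adjusted p = 7.9e-09), Bcl2a1d rose 1.85-fold from 57.4 to 106 CPM, and Bcl2a1a rose 1.74-fold from 44.3 to 77.0 CPM. These copies are nearly identical, and how reads were divided among them is not given in the sources used here, so their separate values are uncertain. Of the list's fallers, Bcl2l12 changed by -0.52 ± 0.09, Bad, a BH3-only gene whose protein is controlled by phosphorylation, by -0.41 ± 0.07 and the mitophagy receptor gene Bnip3 by -0.22 ± 0.08 on the log2 scale. Bcl2l10 had 0 counts in all 16 libraries, which allows at most 0.231 CPM in a library by a floor of 3 counts, and Hrk had 1 count. With library sizes only, 4 of the 11 were called higher and 4 lower.

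Downstream of the mitochondria, 13 genes were tested for the apoptosome, its caspases and the factors released from mitochondria. The test called 3 higher and 7 lower, beside 33.4% higher and 34.2% lower over all genes tested. The median of the list was -0.17 on the log2 scale. Htra2, a mitochondrial protease that blocks inhibitors of apoptosis once released, went from 28.8 ± 1.20 to 98.8 ± 18.1 CPM (SD over 8 libraries a stage), a rise of 3.43-fold (edgeR adjusted p = 1.0e-10). Among the genes called lower, Casp6, an executioner caspase, changed by -0.73 ± 0.09 on the log2 scale, Xiap, a caspase inhibitor, by -0.54 ± 0.08 and Cycs, which encodes cytochrome c, by -0.47 ± 0.07. With library sizes only 3 were called higher and 10 lower.

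Regulators of the family's genes and proteins were tested for 20 of 21 listed, with 10 called higher and 5 lower. Over all genes tested the shares were 33.4% higher and 34.2% lower. The median of the list on the log2 scale was 0.12. March5, a mitochondrial ubiquitin ligase that acts on MCL1 and NOXA, rose 2.26-fold, from 64.1 ± 3.96 to 145 ± 18.5 CPM (SD over 8 libraries a stage; edgeR adjusted p = 1.6e-10). Bag3, a co-chaperone that stabilises protective members, changed by 1.34 ± 0.09 and Pim2, a survival kinase that phosphorylates BAD, by 0.88 ± 0.09. On the other side E2f1, a cell cycle factor, changed by -0.81 ± 0.09, Bag1, a BCL2-binding co-chaperone, by -0.33 ± 0.05 and Mtch2, a receptor for BID on mitochondria, by -0.30 ± 0.05. The balance of this list rested on the scaling, with 8 higher and 9 lower by upper quartile normalization (median -0.002) and 7 higher and 9 lower with library sizes only (median -0.11). Over all 11978 genes these settings called 3213 higher and 5237 lower, and 2716 higher and 6091 lower.

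**Figure D5:**
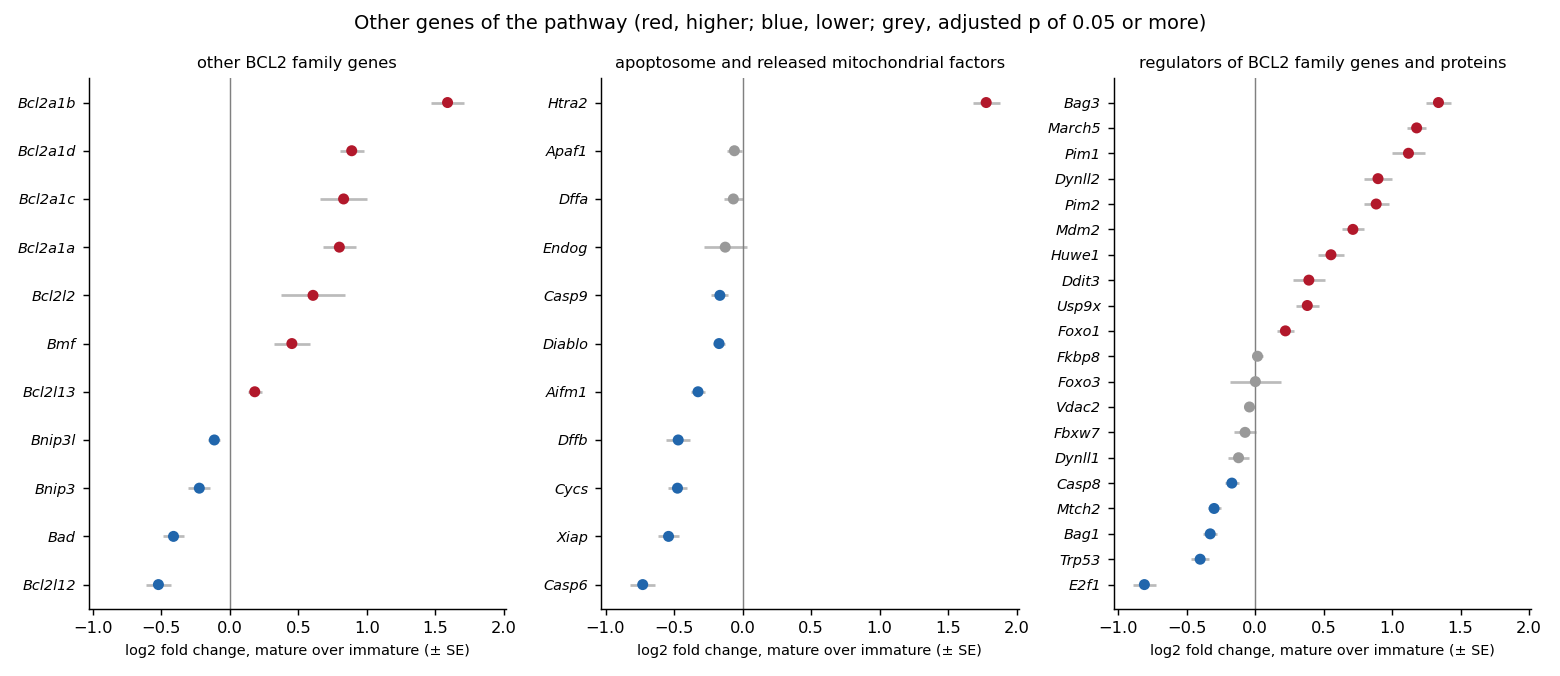
Log2 fold change of mature over immature cells (horizontal axis, ± SE) for tested genes of the 3 lists, coloured by the edgeR call at an adjusted p of 0.05. Among the genes shown, Htra2 (3.43-fold) and Bcl2a1b (3.01-fold) are the largest rises.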

How the data were processed

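RNA from sorted splenic cDC1s was sequenced in 16 libraries. The submitters' processing notes name TopHat2 2.1.0 and build mm10, with limma 3.42.2, SAMtools 0.1.19, FastQC 0.11.4 and Trimmomatic 0.35. The counter, annotation and strandedness are not given in the sources used here. The authors deposited raw counts per gene symbol and a table of log2 values, which was used as an alternative.

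Counts were filtered with filterByExpr, scaled by TMM and fitted in R 4.3.3 with edgeR 4.0.16 (quasi-likelihood, robust, 1 mean per group, all 16 libraries, 12 residual degrees of freedom). SEs were derived from the log2 fold change and its F statistic. Of genes simulated with a 2-fold change between stages, 89.8% of 98 were called, and of those with a log2 change of 0.5, 66.3% of 98. The simulation changed far fewer genes than were called in the data, so these rates need not hold there. Alternatives used DESeq2 1.42.0, limma 3.58.1 on the deposited log2 values, other scalings, no filter, no robust estimation, a replicate block and leaving out each library.

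Libraries of a group were not duplicates (in 24 pairs, chi-square divided by its degrees of freedom was 5.23 to 57.1). The labels do not say that they are separate mice, so p-values cover only spread among these libraries, which may be technical. Libraries sharing genotype and replicate number deviated together (correlations of 0.29 to 0.60 in 8 of 8 pairs over 7881 genes), so the numbers were taken, from the data, to pair the stages within a genotype. Within a genotype, stages of unlike number correlated at -0.41 to 0.24. Across genotypes 7 of 16 same-numbered pairs were over 0.1. Some pairs of unlike number were as high: Xbp1fl replicate 4 and Xbp1flIre1fl replicate 3 correlated at 0.33 to 0.54 over both stages. What these libraries share was not tested.

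All 10 members are named. From each other list, the 3 genes of smallest adjusted p in each direction and 3 Bcl2a1 genes are named, except 2 genes that are not reported here and are left out of the plot of the lists. Members and lists were chosen with earlier results of these data known. Positions and lengths are from GENCODE M21.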

Additional observations from a re-analysis of the deposited data

Results flagged for a closer look

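In 5 of the 40 groups of 4 libraries looked at (10 genes in 4 groups), 1 library lay apart from the other three by Dixon's criterion, which chance alone meets in about 1 group in 20. Bcl2l11 was at 248 CPM in Xbp1fl mature replicate 2, with the others at 314 to 316 CPM. Bcl2l1 was at 24.4 CPM in Xbp1flIre1fl immature replicate 4, with the others at 29.5 to 30.5 CPM, and Bax was at 88.8 CPM in the same library, with the others at 99.8 to 102 CPM. Bak1 was at 2.72 CPM in Xbp1fl immature replicate 1, with the others at 6.17 to 6.34 CPM. Bcl2l14 was at 63.8 CPM in Xbp1flIre1fl immature replicate 1, with the others at 47.2 to 48.7 CPM.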

How the results depend on the processing

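For the stage change as the mean of both genotypes, Bcl2, Bcl2l1, Mcl1, Bcl2l11, Bid, Bbc3, Pmaip1 and Bcl2l14 kept direction and call in all 25 alternatives run, for example 1.99 to 2.40 for Bcl2l1 and -0.70 to -0.41 for Bcl2. With library sizes only, 4 members were called lower, as the mean of both genotypes and within Xbp1flIre1fl. The replicate block, with the number alone or within each genotype, left 6 members called higher and 2 lower in all 3 stage contrasts, and changed no call of a member. With the number as block, 22 genes were called between genotypes in immature and 21 in mature cells.

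Within Xbp1fl the number of members called higher was 6 to 7 when single libraries were left out. It was 7, with Bax among them, without immature replicate 4. Within Xbp1flIre1fl the number of members called lower was 1 to 2 when single libraries were left out, and 1 without mature replicates 2 and 4, an alternative chosen, like the block within each genotype, after seeing the data. Genes called between genotypes in immature cells were 16, but 40 with DESeq2 and 27 without those 2 libraries. In mature cells they were 17, but 36 with DESeq2, 152 without those 2 libraries and 15 to 30 when single libraries were left out, with 30 without Xbp1flIre1fl mature replicate 2.

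Signs turned in values that had not been called with TMM scaling, and the cause was not tested. With library sizes only, Bax was -0.16 in both genotypes together, which was called (adjusted p = 0.014), and -0.084 within Xbp1fl. Upper quartile normalization gave -0.060 for both together. Within Xbp1flIre1fl it was -0.089 to 0.028 over single libraries left out. Bak1 within Xbp1fl was 0.033 with limma and -0.26 to 0.069 over single libraries left out. For the interaction, leaving out the 2 libraries gave 0.14 for Bcl2l1, 0.016 for Mcl1, 0.27 for Bcl2l11, 0.076 for Pmaip1 and 0.056 for Bcl2l14, and library sizes only gave 0.0036 for Bid. Single libraries left out gave -0.27 to 0.086 for Bcl2l11, -0.075 to 0.040 for Bid, -0.063 to 0.32 for Bbc3 and -0.19 to 0.037 for Pmaip1. Between genotypes in immature cells they gave -0.024 to 0.16 for Bcl2, -0.070 to 0.0063 for Mcl1 and -0.086 to 0.095 for Bcl2l11. In mature cells the 2 libraries left out gave 0.22 for Bcl2l1, 0.26 for Bcl2l11, 0.13 for Bbc3 and 0.25 for Bcl2l14, and single libraries -0.38 to 0.0095, -0.28 to 0.072, -0.25 to 0.043 and -0.18 to 0.057.

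Depth limits Bak1 most. The scaling moved mean levels in opposite directions, by 7.89% to 8.20% in immature and by -8.12% to -7.38% in mature libraries, so stage changes depend on it more than either level does.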
